A study of Mus musculus with 69 samples.

Results

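The 9 genes described here are the ones usually measured when calcification of the vessel wall is studied. They are Alpl, Enpp1 and Abcc6 of phosphate and pyrophosphate turnover, the inhibitors Mgp and Tnfrsf11b, the osteochondrogenic transcription factors Runx2, Sox9 and Msx2, and the bone matrix gene Bglap. They were taken by symbol from the 56953 rows of the count tables, and all 9 were present in the tables of every cell type. RNA was sequenced from primary cells of male C57BL/6 mice. WT VSMC were aortic smooth muscle cells of wildtype animals (sets 1 to 4), and KO VSMC were the same kind of cell from animals in which Sm22-driven Cre deletes floxed Egfr (sets 5 to 8, labelled EGFR-KOsmc). EC were cells taken from hearts with CD31 beads after CD45 depletion (sets 9 to 18), and all are labelled WT, although sets 15 and 16 came from animals that also gave KO VSMC. Every set was split into 4 dishes: Control, metabolic stressors (HG + FFA, 20 mM glucose plus 100 µM free fatty acids in the labels, where the methods give that concentration for oleate and for palmitate each), humoral stressors (AII + NA, 30 nM angiotensin II plus 300 nM of the catecholamine, called epinephrine in the labels and norepinephrine in the methods) and both together (ALL), for 24 h in serum-free medium with albumin in all dishes. There were 4 sets of WT VSMC in each condition, 4 of KO VSMC (3 for ALL) and 9 or 10 of EC. Sets 17 and 18 are 1 animal, and 4 animals gave both VSMC and EC.

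Calcification of an artery is an active process in which hydroxyapatite forms in the wall, often with smooth muscle cells that take up features of bone or cartilage cells. Pyrophosphate in the matrix blocks crystal growth. ENPP1 makes it from extracellular ATP, ABCC6 is needed for release of the ATP, and the phosphatase encoded by Alpl hydrolyses pyrophosphate. Matrix Gla protein (Mgp) is a vitamin K-dependent inhibitor made by smooth muscle, and osteoprotegerin (Tnfrsf11b) is a decoy receptor for RANK ligand and TRAIL. RUNX2 drives the osteoblast programme and binds the promoter of Bglap, which encodes osteocalcin. SOX9 drives the cartilage programme and MSX2 acts downstream of BMP signals.

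Promoters are shown for 3 genes, because Enpp1 is a member that changed and Bglap and Runx2 are the textbook target and its factor. Of the 9 genes, 5 matched the RefSeq promoter windows on GRCm38.p6 (Alpl, Enpp1, Runx2, Msx2 and Bglap). The 250 bases before each annotated start were searched on both strands for ACCACA, the core of the RUNX motif (TGTGGT on the other strand). Capitals mark the matches, and all 3 sequences are on the minus strand, 5′ to 3′. The first is at chr10:24712160-24712409, the second at chr17:44814628-44814877 and the third at chr3:88384467-88384716.
Enpp1: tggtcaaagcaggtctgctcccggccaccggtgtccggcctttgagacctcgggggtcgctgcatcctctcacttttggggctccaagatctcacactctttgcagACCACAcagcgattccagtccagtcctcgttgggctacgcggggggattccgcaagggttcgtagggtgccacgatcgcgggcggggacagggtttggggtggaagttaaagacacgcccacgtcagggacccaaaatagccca
Runx2: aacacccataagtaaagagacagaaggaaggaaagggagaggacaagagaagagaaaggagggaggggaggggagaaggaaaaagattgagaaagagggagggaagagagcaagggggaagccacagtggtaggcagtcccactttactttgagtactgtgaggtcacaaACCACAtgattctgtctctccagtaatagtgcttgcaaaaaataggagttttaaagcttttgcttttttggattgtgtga
Bglap: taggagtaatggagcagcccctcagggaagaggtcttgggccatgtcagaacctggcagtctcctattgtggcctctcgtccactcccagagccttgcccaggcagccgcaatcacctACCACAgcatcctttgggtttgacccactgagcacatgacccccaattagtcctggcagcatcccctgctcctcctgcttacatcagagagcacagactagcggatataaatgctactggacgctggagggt
Each of these windows held 1 match, which began 144 bases before the start of Enpp1, 80 before that of Runx2 and 132 before that of Bglap. The windows of Alpl and Msx2 held none. Of all 32851 windows of this length in the table, 14% held the motif, and no binding was measured here.

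Libraries of WT VSMC held 23626664 to 37801299 counts, those of KO VSMC 23238979 to 35120866 and those of EC 17166133 to 43240489. Egfr, the targeted gene, was at 228 to 504 FPM (counts per 1000000 in the library, scaled with TMM over all 69 libraries) in WT VSMC and at 0.537 to 1.96 FPM in KO VSMC of sets 6, 7 and 8. KO set 5 kept 33.4 to 40.2 FPM, so values without it are given where it changes a call. In EC it was at 2.16 to 3.16 FPM in set 16 and 7.45 to 12.46 FPM in set 15, both from animals that gave KO VSMC, at 10.4 to 18.2 FPM in set 18, from an animal with no VSMC among these samples, and reached 166 FPM in set 11. Cultured VSMC of both genotypes had much Acta2 (set means of 601 to 2376 FPM) but little Myh11 (2.69 to 10.9 FPM in all sets other than KO set 5, at 237), and much of the fibroblast marker Pdgfra (117 to 734 FPM). In EC sets 9, 11 and 13 the endothelial marker Pecam1 was at 25.9, 41.4 and 17.9 FPM, against 262 to 1603 FPM in the other EC sets and at most 13.1 FPM in VSMC. The summed endothelial marker level was 57.7, 129 and 57.6 FPM in sets 9, 11 and 13, against 536 to 4186 FPM in the other EC sets. Not every single marker separated them. Erg was at 0.585 FPM in set 17, against 7.42, 4.62 and 3.25 FPM in sets 9, 11 and 13. Tie1 in set 17 and Vwf in set 16 lay below their levels in set 11. The other EC sets were not free of markers of other cells: their summed fibroblast marker level was 215 to 1480 FPM, above the summed endothelial level in set 16 (1290 against 779 FPM) and set 17 (1480 against 536 FPM). Acta2 was at 168 to 590 FPM in them and at 740 to 3116 FPM in sets 9, 11 and 13. Other smooth muscle markers did not all follow Acta2. In sets 9, 11 and 13, Lmod1 was at 63.6, 21.1 and 52.7 FPM, against 3.33 to 23.3 FPM in the other EC sets. Cnn1 was at 2.79, 3.46 and 32.8 FPM, against 0.729 to 29.2 FPM. Smtn was at 34.7, 26.7 and 31.7 FPM, against 34.5 to 81.1 FPM. Results in EC were therefore also computed without sets 9, 11 and 13, a choice made after seeing the data. EC and VSMC were also labelled as different batches (B2 and B1), so cell type, organ and batch cannot be told apart. In bulk RNA, fewer cells of a type and less RNA per cell cannot be told apart either.

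Mgp was by far the most abundant of the 9 genes per unit of length. On the FPKM scale its mean over sets was 844 ± 355 (SD, n = 4) for WT VSMC, 1335 ± 623 (n = 4) for KO VSMC and 436 ± 275 (n = 10) for EC. Tnfrsf11b, Sox9, Runx2 and Enpp1 followed in WT VSMC at 7.68 ± 5.03, 3.90 ± 2.098, 2.47 ± 0.950 and 2.24 ± 1.17 FPKM, and these neighbours did not differ beyond their spread. In KO VSMC the order was the same, with Tnfrsf11b at 20.1 ± 11.04 and Sox9 at 12.49 ± 3.56 FPKM above Runx2 at 2.06 ± 0.308 and Enpp1 at 1.83 ± 1.23. In EC, Sox9 (9.34 ± 4.07) and Tnfrsf11b (7.64 ± 6.73) exchanged places within their spread. Bglap, Msx2, Abcc6 and Alpl were near the floor, at 0.866 ± 0.681, 0.465 ± 0.473, 0.166 ± 0.0947 and 0.151 ± 0.102 FPKM in WT VSMC. Reads counted were those over exons, untranslated regions included. On GRCm39, Mgp lies at chr6:136849433-136852821, Tnfrsf11b at chr15:54114015-54142075, Enpp1 at chr10:24513812-24588057, Abcc6 at chr7:45616979-45679859, Alpl at chr4:137469039-137524102, Runx2 at chr17:44806874-45125684, Msx2 at chr13:53620914-53627110 and Bglap at chr3:88290808-88291771, all on the minus strand, and Sox9 at chr11:112673009-112678586 on the plus strand. Antisense transcripts lie under 13% of the exonic bases of Sox9 and 10% of those of Runx2, whose reads could not be told apart if strand was not used. Reads that fit Bglap also fit its neighbour Bglap2, and reads with several sites were counted at each, so the level of either is uncertain.

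**Figure D1:**
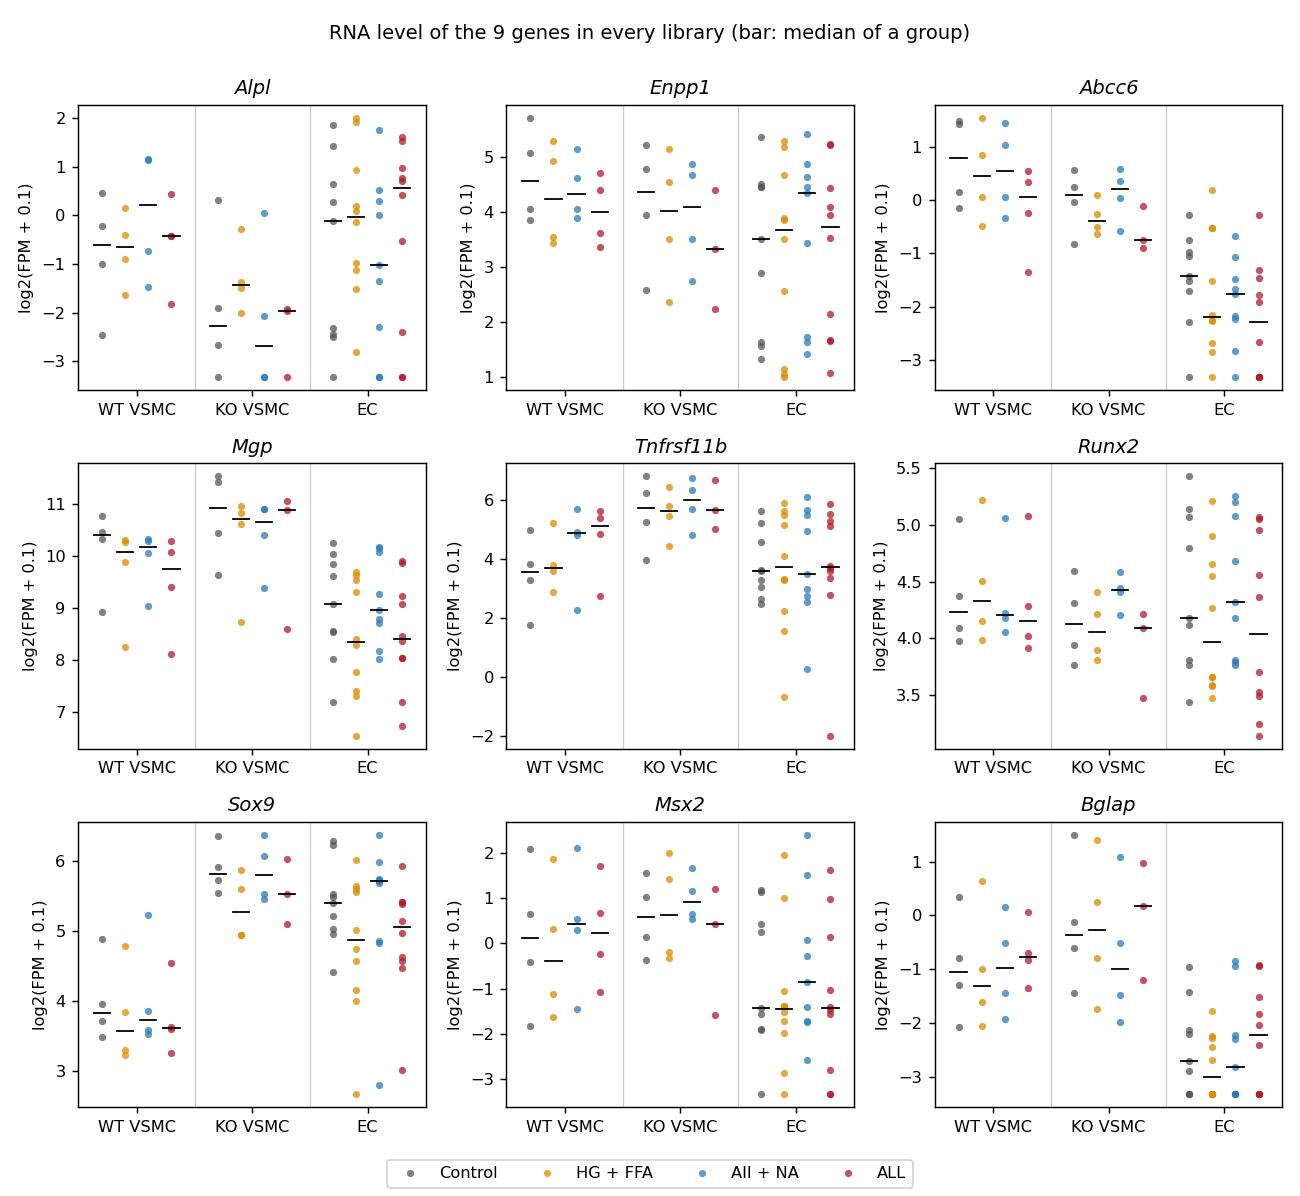
RNA level of each gene in all 69 libraries as log2(FPM + 0.1), by cell type and condition, with a bar at the median of each group. Mgp lies highest in every cell type, while Alpl, Abcc6, Msx2 and Bglap stay below 5.14 FPM in every library.

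The sets differed from each other by more than the libraries within a set did for most of the genes. On the log2 scale, the SD between WT VSMC sets was 1.84 times (Alpl) to 4.12 times (Msx2) the SD within sets. The ratio was below 1 only for Abcc6 and Runx2 in KO VSMC (0.487 and 0.806) and for Abcc6 and Bglap in EC (0.613 and 0.857). Set 3 had the lowest mean level of the 4 WT sets for Mgp (395 FPM against 1038 to 1297 in the others) and for Tnfrsf11b (5.49 against 21.7 to 42.5 FPM). It had the highest for Runx2 (34.3 against 15.7 to 19.1 FPM) and Msx2 (3.75 against 0.262 to 1.37 FPM). In KO VSMC, set 7 had the lowest Mgp at 567 FPM and the lowest Enpp1 at 5.53 FPM, and set 6 had the highest Tnfrsf11b, Sox9 and Bglap at 102, 71.8 and 2.29 FPM. EC sets spanned 30.2-fold in Tnfrsf11b, 16.1-fold in Enpp1 and 3.65-fold in Runx2. For Runx2, EC sets 9, 11 and 13, those with the least endothelial marker RNA, had 37.8, 29.3 and 33.4 FPM against 10.4 to 26.9 FPM in the other EC sets. Each stressor was compared with the Control of its own set.

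**Figure D2:**
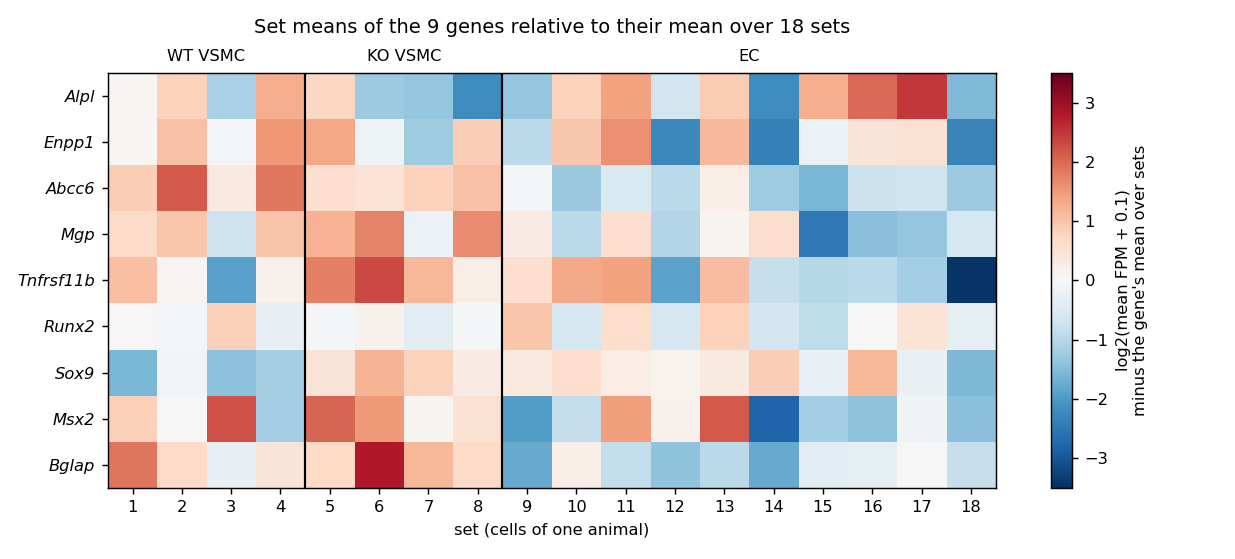
Mean level of each gene in each set as log2(FPM + 0.1), minus the gene's mean over the 18 sets (red higher, blue lower; the colour scale ends at 3.5). WT set 3 stands low for Tnfrsf11b and high for Msx2, and EC set 18 lowest for Tnfrsf11b at 1.803 FPM.

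The comparison of stressors with Control in WT VSMC asks whether metabolic and humoral stress, alone or together, shift these genes within 1 day. Under ALL, Tnfrsf11b rose and Enpp1, Mgp and Abcc6 fell, 1 gene higher and 3 lower of 9 tested. The rest did not pass the test. Across all genes tested, 7.45% passed the same threshold (edgeR quasi-likelihood FDR under 0.05) in this comparison, 3.92% higher and 3.53% lower. Of the 4 genes called, 3 also passed the DEG rule of the study (an absolute log2FC of at least 0.64, 3 FPM in a group and both edgeR and DESeq2), as did 2.24% of all genes. The fold of that rule was taken from edgeR, and Mgp passed it narrowly (log2FC -0.641, against -0.636 by DESeq2, which is under the minimum). The median log2FC of the 9 genes was -0.05, beside -0.01 over all genes.

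Tnfrsf11b was at 31.4, 14.1, 3.29 and 9.59 FPM in the Control of sets 1 to 4 and at 49.6, 28.5, 6.62 and 41.8 FPM under ALL. It was higher in 4 of 4 sets, by 1.58-fold in set 1 up to 4.36-fold in set 4, although the levels of the 2 groups overlap. The fitted change was 2.33-fold (log2FC 1.22, SE 0.25, edgeR FDR = 0.00771). AII + NA alone gave 51.7, 30.2, 4.80 and 28.0 FPM, also higher in 4 of 4 sets (log2FC 0.997, SE 0.25), but this missed the threshold over all genes (edgeR p = 0.000988, FDR = 0.167; FDR = 0.0157 when only these 2 groups were fitted). HG + FFA alone gave 37.5, 13.97, 7.27 and 11.99 FPM, with set 2 unmoved (log2FC 0.43, SE 0.25, FDR = 0.571). ALL exceeded AII + NA by a log2FC of 0.22 (SE 0.24) and HG + FFA by 0.79 (SE 0.25, FDR = 0.225). Without the count filter, edgeR called the difference from HG + FFA (log2FC 0.78, SE 0.11, FDR = 2.59e-10). The call under ALL held without each set in turn, with log2FC of 0.88 to 1.43.

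Both members that act in the supply of pyrophosphate fell under ALL in WT VSMC, and other genes of that supply are not covered here. Enpp1 was at 16.5, 33.5, 14.4 and 52.5 FPM in Control and at 12.2, 20.9, 10.1 and 26.2 FPM under ALL, lower in 4 of 4 sets (log2FC -0.66, SE 0.13, edgeR FDR = 0.00531). Under HG + FFA alone it was also lower in 4 of 4 sets, with set 1 lower than under ALL and sets 2, 3 and 4 higher (10.7, 30.6, 11.6 and 39.2 FPM; log2FC -0.36, SE 0.12, FDR = 0.263). Under AII + NA, sets 1 and 3 stayed near their Control (16.5 and 14.8 FPM) and sets 2 and 4 lay below it (24.4 and 35.6 FPM). Abcc6 was rare, with 8 to 75 reads per WT library: 1.009, 2.57, 0.795 and 2.70 FPM in Control and 0.747, 1.36, 0.291 and 1.17 FPM under ALL. That is lower in 4 of 4 sets (log2FC -0.97, SE 0.21, edgeR FDR = 0.0116), but its mean stayed under the 3 FPM of the DEG rule. Its departure from the sum of the single effects was a log2FC of -0.52 (SE 0.29), which was not called. Without set 4 the FDR rose to 0.0720 for Enpp1, and without set 2, 3 or 4 it rose to 0.0729, 0.0627 and 0.122 for Abcc6, whose call was also lost when only the 2 groups were fitted (FDR = 0.0601).

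Mgp, the calcification inhibitor with the highest level, was at 1282, 1743, 482 and 1406 FPM in Control and at 676, 1080, 275 and 1239 FPM under ALL. Every set was lower, with sets 1 and 3 at 0.527 and 0.570 of their Control and set 4 at 0.881 of it. The fitted change was a log2FC of -0.64 (SE 0.15, edgeR FDR = 0.0158). HG + FFA alone gave 941, 1226, 302 and 1270 FPM, lower in 4 of 4 sets (log2FC -0.44, SE 0.15, FDR = 0.239; 0.0313 when only the 2 groups were fitted). AII + NA gave 1254, 1063, 521 and 1272 FPM, with set 3 higher than its Control (log2FC -0.17, SE 0.15). The call under ALL was lost without set 1 (FDR = 0.0806) or set 3 (FDR = 0.0643).

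**Figure D3:**
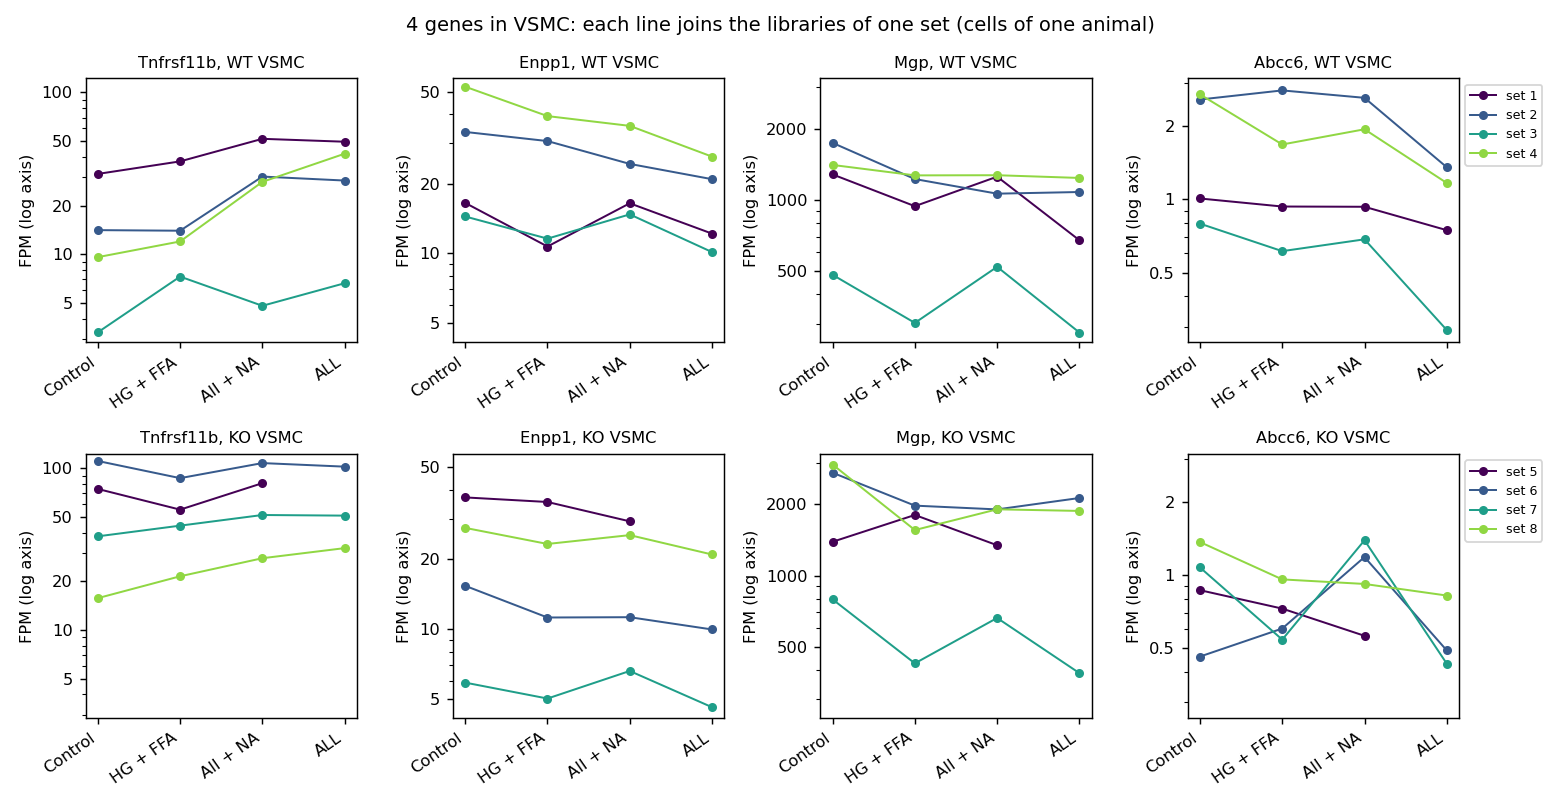
Tnfrsf11b, Enpp1, Mgp and Abcc6 in WT VSMC (top) and KO VSMC (bottom), as FPM on a log axis, each line joining the libraries of 1 set. In WT VSMC all 4 lines end higher for Tnfrsf11b and lower for the other genes under ALL than in Control; KO set 5 has no ALL point.

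The transcription factors and the bone genes passed no test in WT VSMC. Runx2 was at 20.6, 16.97, 33.1 and 15.6 FPM in Control and at 19.4, 16.1, 33.7 and 14.9 FPM under ALL, with a log2FC of -0.05 and an SE of only 0.09. Sox9 was at 11.1, 29.4, 12.97 and 15.3 FPM in Control and at 9.42, 23.0, 12.2 and 11.96 FPM under ALL, lower in 4 of 4 sets (log2FC -0.25, SE 0.11, edgeR FDR = 0.180). Msx2 (log2FC 0.01, SE 0.24) and Bglap (log2FC 0.22, SE 0.36) were expressed at 0.182 to 4.18 and 0.137 to 1.46 FPM over the WT libraries. Alpl, the phosphatase, was at 0.397, 0.754, 0.0822 and 1.28 FPM in Control, at 0.505, 2.13, 0.261 and 2.09 FPM under AII + NA, and at 0.6499, 0.642, 0.182 and 1.26 FPM under ALL. It was higher in 4 of 4 sets under AII + NA (log2FC 1.02, SE 0.36, edgeR p = 0.0112, FDR = 0.328) but in 2 of 4 under ALL (log2FC 0.23, SE 0.38), from 3 to 57 reads per library.

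No member passed edgeR's threshold under HG + FFA or AII + NA alone in WT VSMC, and DESeq2 called none; without the count filter edgeR called 3 (Enpp1, Mgp and Tnfrsf11b) and 1 (Tnfrsf11b). Shares of all genes without the filter are not given here. With it, 0.538% of all genes passed under HG + FFA and 0.0532% under AII + NA. At an unadjusted p under 0.05 there were 2 members in each, where 11.2% and 9.42% of all genes reached it. ALL against HG + FFA gave no call either (0.0414% of all genes called; 3 members at an unadjusted p under 0.05, as were 10.8% of all genes). ALL against AII + NA gave none by edgeR (1.36% of all genes called; 5 members and 14.3% of all genes at an unadjusted p under 0.05), while DESeq2 called Mgp. Departure from additivity was called for no member and no gene by edgeR, and no member reached an unadjusted p under 0.05 (1.72% of all genes did) or was called by DESeq2. The fits of 1 cell type share their Control libraries, so the 3 stressor columns are not independent of each other.

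Beside these changes in WT VSMC, markers of other cells moved under ALL: Emcn and Cdh5 of 8 endothelial markers, Pi16 of 7 fibroblast markers and 3 of 6 pericyte markers passed the test, as did Tagln of 8 smooth muscle markers. The summed endothelial marker level was 1.95 to 66.6 FPM in Control and 1.24 to 32.0 FPM under ALL. The summed smooth muscle marker level was 356 to 1199 FPM in Control and 1087 to 1521 FPM under ALL. The summed fibroblast marker level was 3433 to 6940 FPM in Control and 2568 to 5321 FPM under ALL. The part of these in the results on the 9 genes was not tested.

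**Figure D4:**
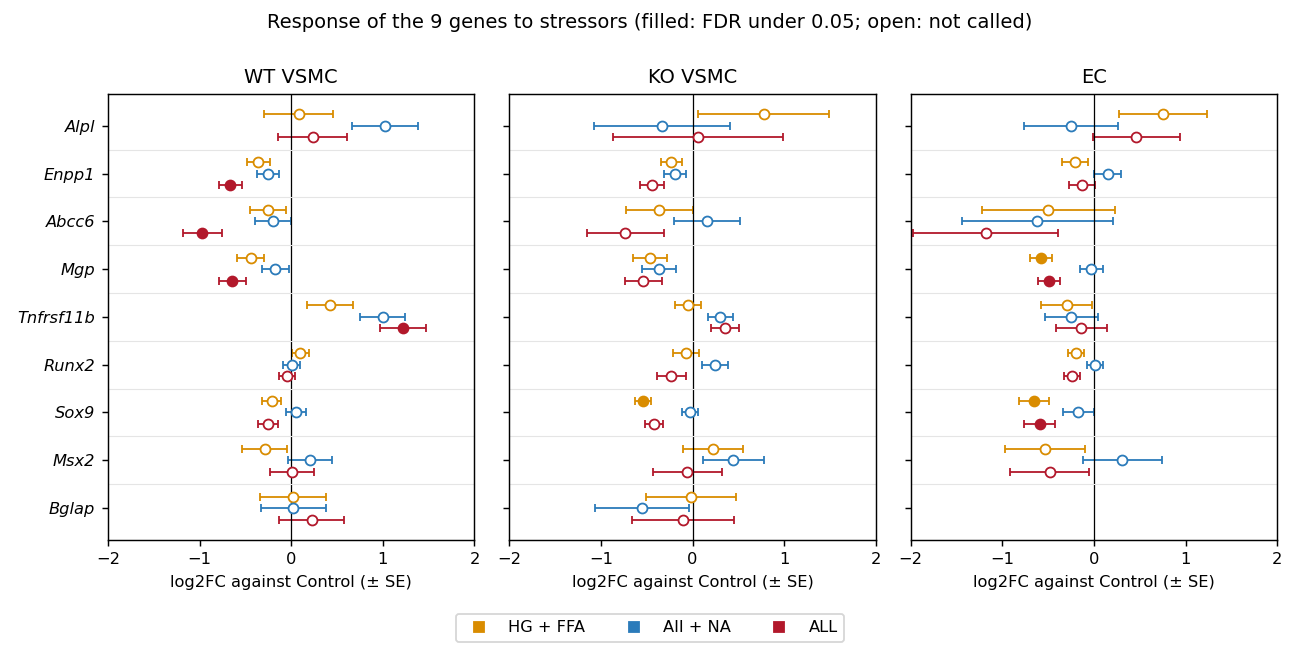
Log2FC against Control with its SE for each gene in each cell type, filled where the FDR was under 0.05. In WT VSMC, 4 ALL points are filled (Tnfrsf11b at 1.22; Enpp1, Mgp and Abcc6 at -0.64 to -0.97), in KO VSMC only Sox9 under HG + FFA, in EC Mgp and Sox9 under HG + FFA and ALL; Bglap was not tested in EC.

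In KO VSMC the only member called was Sox9, which fell under HG + FFA. It was at 52.4, 81.8, 60.1 and 46.2 FPM in the Control of sets 5 to 8 and at 30.5, 58.1, 48.1 and 30.6 FPM under HG + FFA, lower in 4 of 4 sets (log2FC -0.54, SE 0.09, edgeR FDR = 0.0136). Of all genes, 0.439% passed, 0.103% as lower. The DEG rule, which 0.291% of all genes passed, took no member, since the fall was under its minimum size. Under AII + NA it was at 45.9, 82.3, 66.7 and 43.5 FPM, on both sides of Control (log2FC -0.03, SE 0.09). Under ALL, sets 6, 7 and 8 were at 65.1, 45.8 and 34.2 FPM (log2FC -0.42, SE 0.10, FDR = 0.0943; DESeq2 FDR = 0.00533). The call under HG + FFA was lost without set 6 (FDR = 0.187), set 7 (0.130) or set 8 (0.0698), and when only the 2 groups were fitted (0.599). Without set 5, the set that kept some Egfr RNA, Mgp was also called under HG + FFA (log2FC -0.75, SE 0.15, FDR = 0.0172), as it was without the count filter (-0.48, SE 0.11, FDR = 0.00141).

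The genes that changed in WT VSMC under ALL were not called in KO VSMC under ALL, where 0.399% of all genes passed. By edgeR 4 members had an unadjusted p under 0.05, as did 10.5% of all genes, and DESeq2 called 1, Sox9. Tnfrsf11b was at 111, 37.9 and 15.7 FPM in the Control of sets 6, 7 and 8 and at 102, 50.9 and 32.0 FPM under ALL (log2FC 0.36, SE 0.15, FDR = 0.434). Enpp1 was at 15.4, 5.88 and 27.4 FPM and at 9.97, 4.604 and 21.0 FPM, lower in 3 of 3 sets (log2FC -0.45, SE 0.13, FDR = 0.208). Mgp was at 2725, 794 and 2950 FPM and at 2130, 387 and 1878 FPM, also lower in 3 of 3 sets (log2FC -0.54, SE 0.20, FDR = 0.358; called without the count filter, FDR = 0.000485). Abcc6 was at 0.463, 1.07 and 1.37 FPM and at 0.491, 0.433 and 0.824 FPM (log2FC -0.73, SE 0.42, FDR = 0.558). AII + NA alone called no member and no gene by edgeR (Mgp without the count filter, FDR = 0.0364), with Tnfrsf11b at an unadjusted p under 0.05 (9.76% of all genes) and none by DESeq2. ALL against AII + NA called none by edgeR (0.399% of all genes called) and Sox9 by DESeq2. By edgeR, 3 members and 10.4% of all genes had an unadjusted p under 0.05 there. With only these 2 groups fitted, edgeR called Runx2 (log2FC -0.46, FDR = 0.0361) and Sox9 (-0.41, FDR = 0.0142). ALL against HG + FFA called no gene by edgeR (1 member and 2.91% of all genes at an unadjusted p under 0.05), nor did the departure from additivity (no member and 6.59% of all genes), and DESeq2 called no member in either.

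The difference between the genotypes in the response was tested directly, and no member passed with the filter on low counts. For ALL, Tnfrsf11b had the lowest p, with a response larger in WT than in KO VSMC by a log2FC of 0.87 (SE 0.32, edgeR p = 0.0130, FDR = 0.531). The same difference under AII + NA was 0.70 (SE 0.30, p = 0.0298, FDR = 0.405). Without the count filter both differences in Tnfrsf11b were called by edgeR, at nearly the same size and a smaller SE (ALL 0.86, SE 0.17, FDR = 0.000136; AII + NA 0.70, SE 0.16, FDR = 0.00280). For Enpp1, Mgp and Abcc6 under ALL the differences were -0.21 (SE 0.19), -0.10 (SE 0.27) and -0.24 (SE 0.44). Sox9 under HG + FFA fell by more in KO than in WT VSMC by 0.33 (SE 0.13, p = 0.0222), which was not called either. Each of the 3 differences (HG + FFA, AII + NA, ALL) had 1 member at an unadjusted p under 0.05, as had 3.08%, 11.9% and 7.42% of all genes, and none by DESeq2. With the filter, the threshold was passed by 0%, 0% and 0.0109% of all genes. The shares without it are not given here. A genotype difference in the response of Tnfrsf11b was thus called only by edgeR without the filter, and by neither edgeR with it nor DESeq2. None was called for the other members with or without the filter.

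Without stressors, Sox9 was the member that separated the genotypes. Its Control levels were 11.1 to 29.4 FPM in WT VSMC and 46.2 to 81.8 FPM in KO VSMC, with no overlap (log2FC 1.82, SE 0.32, edgeR p = 0.000274, FDR = 0.199). The groups did not overlap for 5.32% of all genes tested. DESeq2 called it (FDR = 4.91e-05), edgeR called it without KO set 5 (FDR = 0.0362) but not when any other single set was left out, and the exact two-sided permutation test of log2 levels gave p = 0.0286, the smallest that 4 against 4 sets allow, for 1 of 9 members tested. Tnfrsf11b was at 15.7 to 111 FPM in KO and 3.29 to 31.4 FPM in WT VSMC (log2FC 2.03, SE 0.71, edgeR FDR = 0.388; exact permutation p = 0.0571). By edgeR 0.00622% of all genes and no member passed, with 2 members and 12.2% of all genes at an unadjusted p under 0.05. Markers differed beside this: the summed fibroblast level was 3153 to 6062 FPM over WT sets and 350 to 2860 FPM over KO sets. The summed mesothelial level did not overlap either, at 3.27 to 4.58 FPM over WT and 6.28 to 66.0 FPM over KO sets, while the summed pericyte level did (709 to 895 and 588 to 1224 FPM). Col2a1, the cartilage collagen, had set means of 67.9 and 90.9 FPM in KO sets 6 and 7, against 0.384 and 3.36 FPM in KO sets 8 and 5 and at most 4.37 FPM in WT sets. The other cartilage markers (Acan, Col9a1 and Matn3) were below 1 FPM in every VSMC set, and the part of marker levels in the Sox9 difference was not tested.

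In EC, Mgp and Sox9 fell under HG + FFA and under ALL, and no member rose. Both are 2 of 8 members tested, while 3.53% of all genes passed under HG + FFA and 3.18% under ALL (1.88% and 2.04% as lower). By the DEG rule Sox9 passed under HG + FFA (0.653% of all genes) and no member under ALL (0.636%) or ALL against AII + NA (0.624%). Bglap was too rare to be tested, at 0 counts in 16 of 38 EC libraries. A limit of 3 counts of a library's total (counting error only) is 0.0694 to 0.175 FPM over all 38 EC libraries. That range was computed without the TMM factor and is not restricted to the 16 libraries at 0. The median log2FC over the 8 members was -0.40 under HG + FFA and -0.36 under ALL, beside 0.00 and -0.01 over all genes. AII + NA alone called no member by edgeR or DESeq2, with none at an unadjusted p under 0.05, and no gene at all by edgeR, where 6.67% of all genes had an unadjusted p under 0.05. The same held for ALL against HG + FFA (5.14%) and for the departure from additivity (8.42%).

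Mgp in EC had a lowest, median and highest level of 145, 535 and 1209 FPM in Control (n = 9) and of 92.9, 325 and 820 FPM under HG + FFA (n = 10). It was lower in 8 of 9 sets, with set 13 the exception (781 and 820 FPM), while the groups overlapped widely (log2FC -0.58, SE 0.12, edgeR FDR = 0.00362). Under ALL it was at 105, 339 and 952 FPM, lower in 8 of 9 sets, with set 17 unmoved at 260 and 263 FPM (log2FC -0.49, SE 0.12, FDR = 0.0162). AII + NA gave 259, 494 and 1154 FPM (n = 9), higher in 4 and lower in 4 of 8 sets (log2FC -0.03, SE 0.12). ALL was lower than AII + NA (log2FC -0.46, SE 0.12, FDR = 0.0223; 3.22% of all genes called, 1.84% as lower), and ALL and HG + FFA differed by 0.09 (SE 0.12). The call under HG + FFA held without each set in turn. The call under ALL was lost without set 16 (FDR = 0.0629) or 18 (0.0568), and that against AII + NA without set 9 (0.103), 10 (0.0754) or 18 (0.0638).

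Sox9 in EC had a lowest, median and highest level of 21.1, 42.0 and 77.9 FPM in Control and of 6.24, 29.3 and 63.9 FPM under HG + FFA. It was lower in 8 of 9 sets, at 0.296 of Control in set 18 and 0.344 in set 12, and higher in set 11 (32.5 and 46.9 FPM; log2FC -0.65, SE 0.17, edgeR FDR = 0.0200). Under ALL it was at 7.96, 33.1 and 60.6 FPM, again lower in 8 of 9 sets and higher in set 11 (log2FC -0.59, SE 0.16, FDR = 0.0380). Under AII + NA it was at 6.86, 52.3 and 82.3 FPM (log2FC -0.17, SE 0.17). Leaving out set 12, 14, 17 or 18 ended the call under HG + FFA (FDR = 0.0725, 0.0527, 0.0574 and 0.0596). Under ALL the call held without set 11 or set 16 and was lost without any 1 of the other 8 sets (FDR up to 0.109).

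Without sets 9, 11 and 13, both genes kept their calls under HG + FFA (Mgp log2FC -0.73, FDR = 0.00270; Sox9 log2FC -0.88, FDR = 0.00881) and under ALL (Mgp -0.52, FDR = 0.0362; Sox9 -0.80, FDR = 0.0179). The difference in Mgp between ALL and AII + NA did not (-0.44, FDR = 0.0687). With the animal as the block, sets 17 and 18 shared a block, while their libraries stayed separate observations. The difference between these sets then went into the residual spread. In that fit Mgp under HG + FFA stayed called. Sox9 under HG + FFA (FDR = 0.240) and both genes under ALL (Mgp 0.113, Sox9 0.324) did not. Mgp in ALL against AII + NA was not called either (FDR = 0.143). With only the 2 groups fitted, 3 calls against Control were lost. These were Sox9 under HG + FFA (FDR = 0.0718) and Mgp and Sox9 under ALL (0.0757 and 0.0724). Col2a1 fell with Sox9 in EC, from a mean of 15.4 FPM in Control to 6.79 FPM under HG + FFA and 5.70 FPM under ALL (FDR = 0.00938 and 0.00518). It was lost without set 12 under HG + FFA (FDR = 0.0899). It passed as 1 of the 2 cartilage markers tested (of 4), and the summed cartilage marker level was 0.105 to 43.4 FPM in Control and 0.291 to 22.4 FPM under HG + FFA. Emcn, 1 of 8 endothelial markers, rose under both. Pi16, 1 of 7 fibroblast markers, and Cspg4, 1 of 6 pericyte markers, fell under HG + FFA, and Upk3b, 1 of 3 mesothelial markers, rose under ALL. The part of these markers, and of the fibroblast and smooth muscle RNA in EC given above, in the fall of Mgp and Sox9 was not tested.

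**Figure D5:**
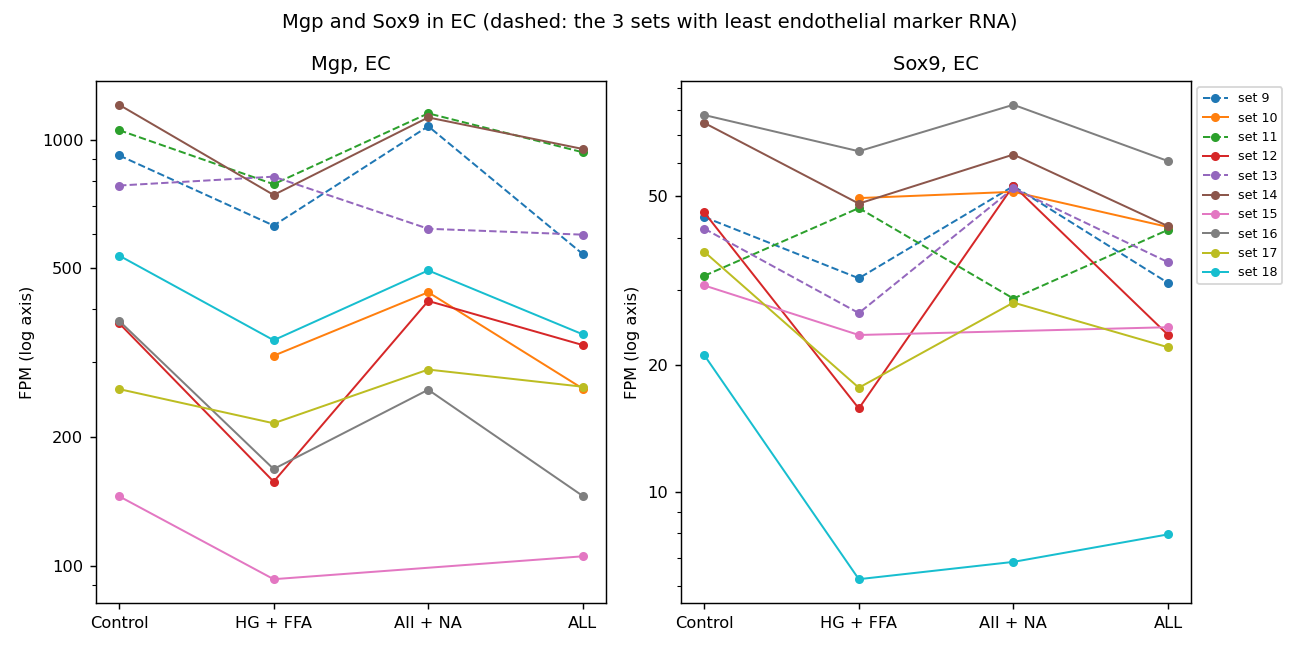
Mgp (left) and Sox9 (right) in EC as FPM on a log axis, each line joining the libraries of 1 set, dashed for sets 9, 11 and 13. Most lines dip under HG + FFA and ALL and return toward Control under AII + NA (Mgp medians of 535, 325, 494 and 339 FPM in the order drawn), with set 18 lowest for Sox9.

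No other member passed a test in EC with all sets included. Without set 13, edgeR called Enpp1 for ALL against AII + NA (log2FC -0.42, SE 0.12, FDR = 0.0446). Tnfrsf11b was at 5.43, 11.96 and 48.7 FPM in EC Control (lowest, median, highest) and at 0.155, 13.1 and 58.1 FPM under ALL. It was higher in 7 of 9 sets but far lower in set 18, at 5.43 and 0.155 FPM (log2FC -0.14, SE 0.28). Without sets 9, 11 and 13 its log2FC under ALL was -0.45 (SE 0.40). Under HG + FFA it moved from -0.30 (SE 0.28) to -0.73 (SE 0.40) without them, and neither was called. Enpp1 was at 2.41, 11.3 and 41.2 FPM and at 1.99, 13.3 and 37.8 FPM (log2FC -0.13, SE 0.14, FDR = 0.724). Abcc6 was at 0 counts in 7 of 38 EC libraries and no higher than 1.04 FPM. Runx2 was at 10.7, 18.02 and 42.9 FPM in Control and at 8.72, 16.7 and 33.4 FPM under ALL, lower in 7 of 9 sets (log2FC -0.24, SE 0.08, edgeR p = 0.00773, FDR = 0.122). Responses of WT VSMC and EC were not tested against each other.

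Between EC and WT VSMC in Control, 12% of all genes passed (6.7% higher in EC and 5.35% lower), and so did 2 of 8 members, of which Sox9 passed the DEG rule (9.88% of all genes). Sox9 was higher in EC (21.1 to 77.9 FPM against 11.1 to 29.4 FPM; log2FC 1.41, SE 0.36, edgeR FDR = 0.0256) and Abcc6 was lower (0 to 0.720 FPM against 0.795 to 2.70 FPM, with no overlap; log2FC -2.45, SE 0.69, FDR = 0.0359). The groups did not overlap for 7.71% of all genes. This fit had no block and took every Control library as independent, although sets 17 and 18 are 1 animal and sets 1 and 9 share another. EC sets 15 and 16, from animals that also gave KO VSMC, were included. The Sox9 call was lost without WT set 1, 3 or 4 (FDR = 0.0901, 0.0862 and 0.0799) and with counts summed over 3 conditions of a set (0.0569). The Abcc6 call was lost without any 1 of the WT sets (FDR of 0.0572 to 0.118) or without EC set 12, 15 or 16 (0.0551, 0.0603 and 0.0568), and without the count filter (0.0551).

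Of 66 other genes linked to calcification, chosen with earlier results of these data known, 52 (WT VSMC), 56 (KO VSMC) and 54 (EC) had enough counts for a test. In WT VSMC under ALL, 2 rose and 4 fell (11.5% against 7.45% of all genes). Tgm2, the transglutaminase that crosslinks matrix, rose from a mean of 88.1 to 181 FPM (log2FC 1.06, SE 0.14, edgeR FDR = 0.000436), and Slc20a2, a sodium-phosphate importer, from 88.8 to 123 FPM (log2FC 0.48, FDR = 0.00289). Phex, an endopeptidase of mineralised tissue, fell from 1.39 to 0.455 FPM, Ahsg, which encodes the mineral-binding protein fetuin-A, from 5.61 to 2.26 FPM, Omd (osteomodulin) from 5.75 to 3.01 FPM and Comp (a cartilage matrix protein) from 97.3 to 65.4 FPM. These 4 had log2FC of -1.58, -1.32, -0.89 and -0.55 and were called by DESeq2 also. All 4 lost the call without set 4, and Phex and Ahsg without set 2, while Tgm2 and Slc20a2 kept it without each set in turn.

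Tgm2 was the list gene that rose in all 3 cell types. Under HG + FFA it rose from 88.1 to 160 FPM in WT VSMC (log2FC 0.85, SE 0.14, FDR = 0.00865), from 126 to 211 FPM in KO VSMC (0.75, SE 0.15, FDR = 0.0328) and from 43.04 to 62.9 FPM in EC (0.75, SE 0.14, FDR = 0.00191). It was the only list gene called in WT or KO VSMC under HG + FFA (1.92% and 1.79% of the list tested, against 0.538% and 0.439% of all genes), and the only 1 in KO VSMC under ALL (0.81, SE 0.16, FDR = 0.0405). The WT call was lost without set 3 (FDR = 0.187), and both KO calls without set 6, 7 or 8 (FDR up to 0.605).

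In EC, 2 list genes rose and 8 fell under HG + FFA (18.5% against 3.53% of all genes), and 2 rose and 7 fell under ALL (16.7% against 3.18%). Under HG + FFA the largest falls were in Ahsg, from 4.68 to 2.18 FPM (log2FC -1.14, SE 0.27, edgeR FDR = 0.0131), and Col2a1, followed by the vitamin D receptor Vdr, from 10.48 to 7.49 FPM (-0.52, FDR = 0.0424). Gas6, a vitamin K-dependent ligand, fell from 470 to 346 FPM (-0.47, FDR = 0.00614), and Vkorc1, which recycles vitamin K, from 9.06 to 6.46 FPM (-0.46, FDR = 0.0380). Tgm2 apart, Bmpr1a, a BMP receptor, was the gene that rose, from 220 to 267 FPM under HG + FFA. Bgn, Sparc and Anxa2, abundant in EC, fell less, with log2FC of -0.27, -0.25 and -0.25 under HG + FFA. Under ALL, Ahsg, Col2a1, Gas6, Vkorc1, Bgn, Sparc and Anxa2 were lower and Tgm2 and Bmpr1a higher. Without 1 set, 8 of the 10 calls under HG + FFA (all but Tgm2 and Gas6) and 6 of the 9 under ALL (all but Tgm2, Ahsg and Col2a1) were lost at least once. The medians over the tested list were -0.09 and -0.11, beside 0.00 and -0.01 over all genes. Sets 17 and 18, of 1 animal, count as 2 sets in these list results. Values with the animal as the replicate block are not given for the list.

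For the 5 members that reach a mean of 3 FPM in some cell type, the protein-coding genes with the most similar levels were sought among 11870 genes, by Pearson's r of log2(FPM + 0.1) over the 18 set means, which mix 3 cell types and shared animals. For Mgp these were Cdk20, Afg2b and Tfb1m (r = 0.873, 0.847 and 0.842), for Tnfrsf11b Itgb5, Calhm5 and Gramd2b (0.847, 0.844 and 0.807), and for Enpp1 Sync, Adamts2 and Enox1 (0.868, 0.861 and 0.853). For Runx2 they were Piga, Isy1 and Farp1 (0.861, 0.808 and 0.807). Sox9 had the weakest matches, Epb41l4b, Cbr2 and Carns1 (0.779, 0.771 and 0.765). No member was among the 3 genes most similar to another.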

How the data were processed

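Bulk poly(A) RNA-Seq counts of 69 libraries were used. The authors deposited raw counts per Ensembl gene, which they made with HISAT2 2.1.0 on mm39 and featureCounts, counting reads with several sites at each; strand and fractional counting are not given in the sources used here. Symbols came from the reference annotation on GRCm39. Counts were tested in edgeR 4.0.16 (R 4.3.3; TMM, filterByExpr, quasi-likelihood) within a cell type with the set as block, as the methods pair samples, and between cell types or genotypes in Control without a block; genotype by treatment terms used 1 fit of all VSMC. A call is an FDR under 0.05 over all genes. Shares of all genes passing a threshold were computed with the count filter, by edgeR alone except for the DEG rule. No share of all genes is given for DESeq2 alone. SE is the log2FC divided by the root of the F statistic. DESeq2 1.42.0 was the alternative, as was the DEG rule of the study (FDR under 0.05 in both tools, an absolute log2FC of at least 0.64, 3 FPM in a group). The sets are cells of 1 animal; after removal of condition means, libraries of the same set correlated at a mean r of 0.703, 0.663 and 0.717 in WT VSMC, KO VSMC and EC (lowest 0.443), so numbers pair samples. Within groups no 2 libraries agreed within sampling noise (smallest chi-square per gene 41.6). Scripts were tested on simulated data. Named were all 9 members, Egfr, Bglap2, up to 6 other list genes per comparison past the FDR (more were named in EC, after seeing values), and the 3 most similar genes. Members and lists were chosen with earlier results of these data known. Not analysed here: ALL of KO set 5, Control of EC set 10, AII + NA of EC set 15. Rows outside the annotation took 0.0241% of counts. A setting without 3 EC sets was added after seeing the data.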

Additional observations from a re-analysis of the deposited data

Results flagged for a closer look

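In 99 groups of 4 to 10 libraries (9 genes, 11 groups), 4 levels stood apart from the rest of their group by Dixon's test on the log2(FPM + 0.1) scale, and chance alone flags about 1 in 20 groups. Mgp in KO VSMC under HG + FFA was at 426 FPM in set 7, against 1559 to 1978 FPM in the other 3 sets. EC set 18 gave the other 3. Its Tnfrsf11b under ALL was 0.155 FPM, against 6.77 to 58.1 FPM in the other EC sets. Its Sox9 was 6.86 FPM under AII + NA, where the other EC sets had 28.1 to 82.3 FPM, and 7.96 FPM under ALL, where they had 22.03 to 60.6 FPM. Set 17, from the same animal, had 13.4 FPM of Tnfrsf11b and 22.03 FPM of Sox9 under ALL.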

How the results depend on the processing

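No call reversed under any alternative tried. The member counts below are given without the share of all genes called under the same alternative. The count of members called under ALL in WT VSMC, 4 as reported, was 0 without the replicate block and 2 to 3 without 1 set. Without the replicate block the count was 0 in every paired comparison that had a call, and with the animal as the replicate block EC had 1 (HG + FFA), 0 (ALL) and 0 (ALL against AII + NA). Without the count filter it was 3, 1, 1 and 2 in WT VSMC (HG + FFA, AII + NA, ALL against HG + FFA, ALL against AII + NA), 2, 1 and 1 in KO VSMC (HG + FFA, AII + NA, ALL), 2 in EC (ALL against AII + NA), 1 each for the genotype difference in AII + NA and ALL (Tnfrsf11b) and 1 for EC against WT VSMC (Sox9). With only the 2 groups fitted it was 1 and 1 in WT VSMC (HG + FFA, AII + NA), 0 and 2 in KO VSMC (HG + FFA, ALL against AII + NA) and 1 and 0 in EC (HG + FFA, ALL). DESeq2 gave 1 for ALL against AII + NA in WT and in KO VSMC, 1 for ALL in KO VSMC and 1 for the genotypes in Control. The DEG rule of the study left 0 in KO VSMC, 1, 0 and 0 in EC (HG + FFA, ALL, ALL against AII + NA) and 1 for EC against WT VSMC. Summing 3 conditions gave 1 for EC against WT VSMC (Abcc6), and without 3 EC sets ALL against AII + NA gave 0. Without 1 set, the count was 0 to 2 in KO VSMC under HG + FFA, 1 to 2 and 0 to 2 in EC under HG + FFA and ALL, 0 to 2 for ALL against AII + NA in EC, 0 to 1 for the genotypes in Control and 0 to 2 for EC against WT VSMC. Among the values of members that were not called, 148 changed sign. The causes were not tested. Abcc6, Alpl, Msx2 and Bglap rest on few reads, so their changes were not detectable below their SE.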
